A study of Homo sapiens with 12 samples.

Results

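The respiratory chain and ATP synthase of mitochondria were followed at the level of their nuclear genes. The set held 89 subunit genes of complexes I to V, with the inhibitor gene ATP5IF1 counted among them. Of these, 88 had a read, beside 33704 gene identifiers listed for the 12 libraries. Members were protein-coding genes chosen by symbol alone: the NDUFA, NDUFB, NDUFC, NDUFS and NDUFV series, SDHA to SDHD, CYC1 and the UQCR, COX4 to COX8 and ATP5 series. Of the 89 members, 37 belong to complex I, 4 to complex II, 10 to complex III, 19 to complex IV and 19 to complex V (ATP synthase). NDUFA4 and NDUFA4L2 are counted in complex IV, where NDUFA4 is known to sit. Assembly factors were left out, as were 2 read-through loci and 1 gene that no longer carries an ATP5 symbol. The genes of the mitochondrial genome are not analysed here.

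Jurkat is an established line from a T-cell leukaemia, and its RNA was sequenced as stranded mRNA libraries in 6 groups of 2. Jurkat cells with a doxycycline-inducible shRNA against TAL1, a blood transcription factor, were grown for 72 h with 5 µg/ml doxycycline (TAL1-KD). Such cells grown without doxycycline, for a time not given in the labels, are TAL1-control. Jurkat cells with an inducible shRNA against UTX, the KDM6A product that demethylates histone H3 at a Polycomb mark, were grown in the same ways (UTX-KD and UTX-control). Other Jurkat cells received GSK-J4, an inhibitor of KDM6 demethylases, at 2 µM for 72 h (J4-2uM), or its DMSO vehicle (J4-control). All groups share 1 cell line, and no group received doxycycline without an inducible shRNA. In both shRNA comparisons doxycycline and the shRNA therefore cannot be told apart. Nothing in the labels shows that a group's replicates were grown apart, so p-values reflect only the spread between these libraries, which could be technical. In bulk RNA, fewer cells that express a gene and less of its RNA per cell cannot be told apart.

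Complex I takes electrons from NADH and complex II from succinate, and both pass them to coenzyme Q. Complex III hands them on to cytochrome c and complex IV to oxygen, while complexes I, III and IV pump protons that drive ATP synthesis in complex V. Nuclear and mitochondrial genes supply the subunits together, and a few complex IV subunits exist as tissue- or oxygen-dependent isoforms. Many of the nuclear genes are known as targets of the transcription factors NRF1 and GABP.

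Each library held 55524079 to 82534711 counted reads, of which 0.735% to 0.995% fell on the members. The targeted mRNAs did not pass the test: TAL1 had 232 and 254 CPM (TMM-scaled CPM) in the libraries labelled TAL1-KD, against 254 and 257 CPM in TAL1-control (log2 fold change -0.074, 95% interval -0.27 to 0.13, edgeR adjusted p = 0.49). KDM6A had 29.3 and 29.4 CPM in the libraries labelled UTX-KD, against 30.9 and 31.3 CPM in UTX-control (log2 fold change -0.083, 95% interval -0.17 to 0.0036, edgeR adjusted p = 0.103). The knockdown groups are therefore named by their labels only. The summed level of 7 T-lineage markers was 2640 to 3009 CPM in TAL1-KD and 2139 to 2254 CPM in TAL1-control, 2232 to 2276 CPM in UTX-KD and 1962 to 1986 CPM in UTX-control, and 1510 to 1569 CPM in J4-2uM and 1660 to 1676 CPM in J4-control. The 10 markers of other cell types summed to 66.0 to 69.3 CPM in TAL1-KD and 75.1 to 75.6 CPM in TAL1-control, 60.7 to 62.5 CPM in UTX-KD and 44.1 to 45.4 CPM in UTX-control, and 94.9 to 103 CPM in J4-2uM and 46.3 to 46.4 CPM in J4-control. CD79A made up most of each of these sums, COL1A1 reached 10.2 CPM, the other 8 stayed under 0.5 CPM in every library, and HBB had no read in any. The part of these marker shifts in the results below was not tested.

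Of the 89 members, 7 were nearly silent, and all but ATP5MGL are alternative isoforms of complex IV. Over the 12 libraries together, COX4I2 and COX7A1 had 1 read each, ATP5MGL 4, COX6A2 6, COX8C 19 and COX6B2 116. COX7B2 had no read, which allows a level of up to 0.00368 CPM (3 reads of the total, counting error only). COX6B2 passed the filter on low counts in the GSK-J4 comparison alone, at 0.169 and 0.463 CPM in J4-2uM and 0.172 and 0.211 CPM in J4-control. Their partners COX4I1, COX6A1, COX6B1, COX7A2, COX7B and COX8A carried the expression. The number of members tested was 82 for TAL1-KD, 82 for UTX-KD and 83 for GSK-J4. Per kilobase of transcript, levels in J4-control ran from 0.137 CPM per kb for COX6B2 to 560.5 CPM per kb for ATP5F1B, the catalytic beta subunit of ATP synthase, with a median of 92.1 CPM per kb. COX7C, COX4I1, ATP5MF and COX5A followed ATP5F1B at 349.9, 338, 334 and 333 CPM per kb on annotated transcript lengths, which are approximate.

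The 3 control groups did not start from the same level. TAL1-control gave 0.735% and 0.758% of its reads to the members, against 0.974% and 0.979% in UTX-control and 0.920% and 0.921% in J4-control. Both TAL1-control libraries lay below all 4 other control libraries for 75 of 82 members (91.5%), against 43.6% of all 16103 genes tested in the 3 comparisons. The median log2 ratio of TAL1-control to UTX-control was -0.51 over the members and -0.051 over all genes. Relative to the same UTX-control levels, the libraries labelled TAL1-KD had a median of 0.0043 over the members and -0.086 over all genes. ATP5MC1, NDUFS6 and NDUFB6, picked here for their values, stood lowest, with log2 ratios of -1.83, -1.43 and -1.43, and NDUFA4L2 stood highest at 1.75. The tables were scaled separately, no test was made across them, and the shRNA line, vehicle and culture of each control group cannot be told apart.

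**Figure D1:**
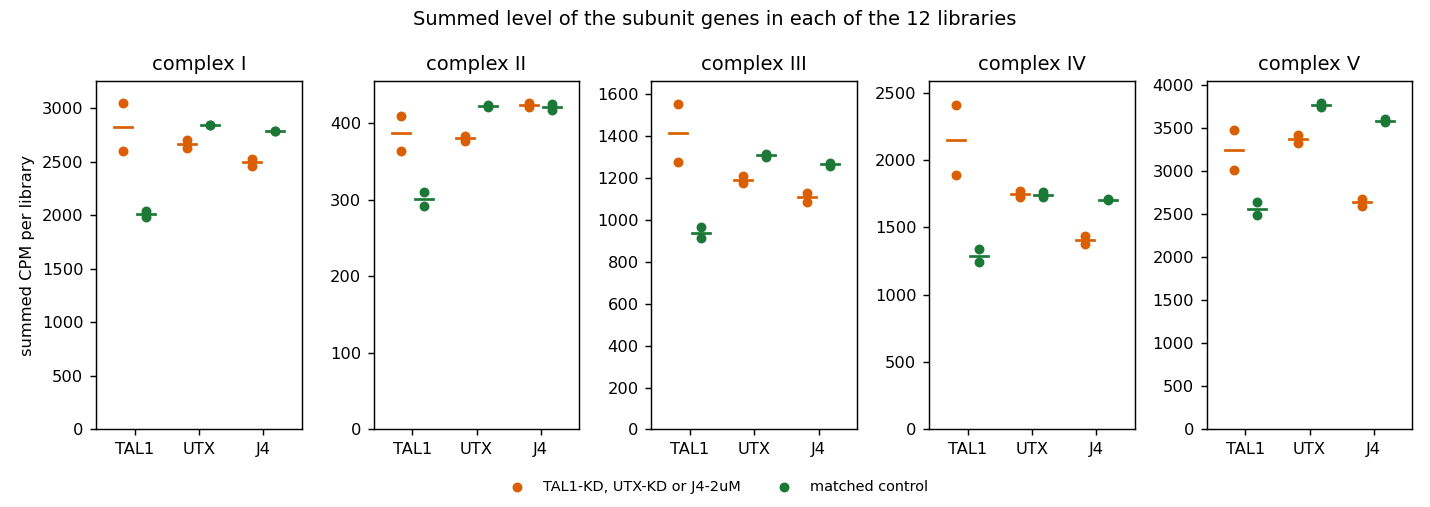
Summed CPM of the subunit genes of each complex (y axes from 0) in each of the 12 libraries, with the TAL1-KD, UTX-KD and J4-2uM libraries (orange) left of their matched controls (green). Points are libraries and lines are group means of 2. For complex I, TAL1-KD libraries held 2599 and 3046 CPM and TAL1-control libraries 1982 and 2038 CPM, while all UTX and J4 controls stood at 2787 CPM or more.

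The first comparison set TAL1-KD against TAL1-control. Respiratory chain genes were higher across all 5 complexes in the libraries labelled TAL1-KD: 63 of 82 tested members rose and 3 fell, where 26.3% of all 16829 genes tested were called higher and 27.9% lower. The median log2 fold change was 0.59 over the members and -0.022 over all genes. Summed over all members, the level was 9149 and 10887 CPM in TAL1-KD and 6919 and 7293 CPM in TAL1-control, a ratio of 1.41. Groups did not overlap for 78 of 82 members, 74 of them higher, while 38.8% of all tested genes lay wholly above their controls and 42.2% wholly below. The second TAL1-KD library was above the first for 73 of 82 members, and the second TAL1-control library for 70 of 82. The median difference of the first minus the second was -0.26 (log2) in TAL1-KD and -0.073 in TAL1-control. The shares over all genes are not given here.

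Complex IV had all 13 of its tested members called higher, at a median log2 fold change of 0.68, and its summed level was 1.66 times that of the controls. COX7B (ENSG00000131174), an accessory subunit of cytochrome c oxidase, had 83.3 and 104 CPM in the libraries labelled TAL1-KD, against 38.1 and 38.7 CPM in TAL1-control. COX7B was above its controls in both libraries, with a log2 fold change of 1.29 ± 0.11 (SE, adjusted p = 0.000322). COX7A2, the non-muscle form of subunit 7a, had 166 and 214 CPM in the libraries labelled TAL1-KD, against 80.4 and 88.5 CPM in TAL1-control. For COX7A2 the groups did not overlap, and the log2 fold change was 1.17 ± 0.13 (SE, adjusted p = 0.000542). COX6B1, which faces the intermembrane space near the cytochrome c site, had 131 and 174 CPM in the libraries labelled TAL1-KD, against 67.9 and 74.8 CPM in TAL1-control. Both COX6B1 values lay above both controls, with a log2 fold change of 1.09 ± 0.14 (SE, adjusted p = 0.000807). The smallest change of the complex was that of COX5A, a log2 fold change of 0.36 ± 0.11 (adjusted p = 0.0287).

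Complex III followed with 9 of 10 members higher at a median of 0.64, led by its small subunits. UQCRQ, a small subunit of the cytochrome bc1 complex, had 78.5 and 104 CPM in the libraries labelled TAL1-KD, against 42.2 and 41.3 CPM in TAL1-control. UQCRQ was above its controls in both libraries, with a log2 fold change of 1.13 ± 0.13 (SE, adjusted p = 0.000660). UQCR11 and UQCR10, other small subunits, had log2 fold changes of 1.09 and 1.04. The 4 redox and core subunits had a median of 0.51 and the 6 small subunits one of 0.94, a difference that was not tested. CYC1, cytochrome c1, had 138 and 179.9 CPM in the libraries labelled TAL1-KD, against 102 and 107 CPM in TAL1-control. Both CYC1 values lay above both controls, with a log2 fold change of 0.60 ± 0.13 (SE, adjusted p = 0.00575). UQCRFS1, the Rieske iron-sulphur protein, had 83.2 and 97.6 CPM in the libraries labelled TAL1-KD, against 65.9 and 67.3 CPM in TAL1-control. For UQCRFS1 the groups did not overlap, and the log2 fold change was 0.44 ± 0.094 (SE, adjusted p = 0.00649). UQCRC1, a core subunit, was the member that did not pass, a log2 fold change of 0.20 ± 0.098 (adjusted p = 0.127).

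In complex I, 26 of 37 members rose and 2 fell, with a median of 0.56. Accessory subunits led. NDUFA2, an accessory subunit of the NADH-oxidising arm, had 51.8 and 66.2 CPM in the libraries labelled TAL1-KD, against 23.1 and 25.0 CPM in TAL1-control. NDUFA2 was above its controls in both libraries, with a log2 fold change of 1.29 ± 0.13 (SE, adjusted p = 0.000420). NDUFS5 (ENSG00000168653), an accessory subunit of the membrane arm, had 161 and 202 CPM in the libraries labelled TAL1-KD, against 73.3 and 77.9 CPM in TAL1-control. For NDUFS5 the groups did not overlap, and the log2 fold change was 1.27 ± 0.12 (SE, adjusted p = 0.000355). NDUFA13, also known as GRIM-19, had 45.4 and 57.5 CPM in the libraries labelled TAL1-KD, against 25.3 and 25.9 CPM in TAL1-control. Both NDUFA13 values lay above both controls, with a log2 fold change of 1.01 ± 0.12 (SE, adjusted p = 0.000706). Of the 7 conserved flavin and iron-sulphur subunits, 4 rose and 1 fell, at a median of 0.32: NDUFS7, NDUFS8, NDUFS3 and NDUFV1 had log2 fold changes of 0.69, 0.55, 0.37 and 0.32, and the value of NDUFV2, 0.19, did not pass.

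The exceptions were few. NDUFS1, the largest iron-sulphur subunit of complex I, had 111 and 106 CPM in the libraries labelled TAL1-KD, against 149.9 and 144 CPM in TAL1-control. NDUFS1 was below its controls in both libraries, with a log2 fold change of -0.44 ± 0.077 (SE, adjusted p = 0.00296). NDUFC2, an accessory subunit of the membrane arm, had 8.27 and 5.40 CPM in the libraries labelled TAL1-KD, against 10.1 and 12.4 CPM in TAL1-control. For NDUFC2 the groups did not overlap, and the log2 fold change was -0.72 ± 0.21 (SE, adjusted p = 0.0216). NDUFC2 overlaps a read-through locus, so its reads may be split. ATP5F1D, the delta subunit of the ATP synthase head, had 52.1 and 58.0 CPM in the libraries labelled TAL1-KD, against 77.0 and 80.0 CPM in TAL1-control. Both ATP5F1D values lay below both controls, with a log2 fold change of -0.51 ± 0.084 (SE, adjusted p = 0.00227).

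In complex V, 12 of 18 tested members rose and 1 fell at a median of 0.43. All 5 small membrane subunits of the enzyme rose, at a median of 0.81. ATP5ME, subunit e, had 66.3 and 97.5 CPM in the libraries labelled TAL1-KD, against 31.9 and 33.1 CPM in TAL1-control. ATP5ME was above its controls in both libraries, with a log2 fold change of 1.33 ± 0.17 (SE, adjusted p = 0.000820). ATP5MJ and ATP5MK, further small membrane subunits, followed at 1.16 and 0.81. The head that makes ATP had a median of 0.073 over its 5 subunits, 2 of them higher and 1 lower. ATP5F1B, the catalytic beta subunit, had 944 and 1046 CPM in the libraries labelled TAL1-KD, against 747 and 783 CPM in TAL1-control. Both ATP5F1B values lay above both controls, with a log2 fold change of 0.38 ± 0.11 (SE, adjusted p = 0.0189). ATP5F1A, the alpha subunit, had 368 and 388 CPM in the libraries labelled TAL1-KD, against 369 and 389 CPM in TAL1-control. For ATP5F1A the groups overlapped, and the log2 fold change of -0.0033 ± 0.088 (SE) did not pass (adjusted p = 0.977). The inhibitor ATP5IF1, which blocks ATP hydrolysis by the enzyme, had a log2 fold change of 0.40 ± 0.13 (adjusted p = 0.0300).

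Complex II, which has no mitochondrially encoded subunit, had 3 of 4 members higher at a median of 0.36. SDHC, a membrane anchor, had 94.1 and 98.9 CPM in the libraries labelled TAL1-KD, against 66.3 and 69.6 CPM in TAL1-control. SDHC was above its controls in both libraries, with a log2 fold change of 0.51 ± 0.077 (SE, adjusted p = 0.00161). SDHA (ENSG00000073578), the flavoprotein that oxidises succinate, had 148 and 186 CPM in the libraries labelled TAL1-KD, against 116 and 125 CPM in TAL1-control. For SDHA the groups did not overlap, and the log2 fold change was 0.48 ± 0.12 (SE, adjusted p = 0.0110). SDHD, the other anchor, had a log2 fold change of 0.25 ± 0.089 (adjusted p = 0.0466), and SDHB, the iron-sulphur subunit, had a log2 fold change of 0.074 ± 0.074 (adjusted p = 0.424), which did not pass. Named pseudogenes of SDHA held 25.9% of the reads on SDHA and its pseudogenes in this comparison, so part of the SDHA count may be misplaced.

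Transcript length and library scaling moved with this result. The members have short transcripts, with a median of 880 bases against 2935 for other coding genes tested, and 49.2% of the other 705 coding genes under 1000 bases were called higher here, with a median log2 fold change of 0.37. Members under 1000 bases had a median of 0.68 and longer ones 0.43. Once trends with GC content and length were taken out of every library, 62 members were called higher and 3 lower at a median of 0.51. The medians above of small, core and head subunits took no account of length, and its part in their contrasts was not tested. With total counts in place of TMM scaling, an alternative chosen after seeing the data, 54 were higher and 3 lower, the median was 0.44, and the median of all genes was -0.17. Without replicate 1 of TAL1-control the calls of ATP5F1B, ATP5IF1, COX8A, NDUFA4L2, NDUFS1, NDUFS3, NDUFV1, SDHA, SDHD and UQCRFS1 ended, and without replicate 2 those of ATP5F1B, ATP5IF1, NDUFA4L2, NDUFC2, NDUFS3, NDUFV1 and SDHD.

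**Figure D2:**
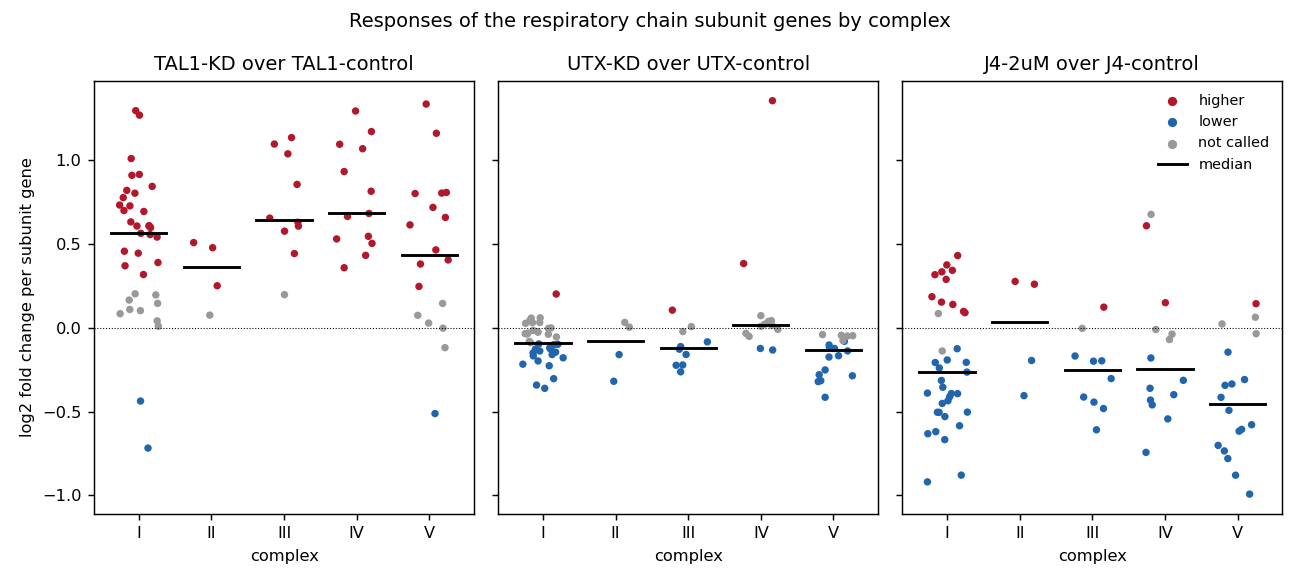
Log2 fold change (y axis) of each tested subunit gene by complex (x axis), for TAL1-KD over TAL1-control, UTX-KD over UTX-control and J4-2uM over J4-control. Points are genes, coloured by the call at an adjusted p of 0.05 (edgeR), and black lines are medians. The TAL1 medians lie between 0.36 and 0.68, the UTX medians near 0, and the J4 median of complex V at -0.45.

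The second comparison set UTX-KD against UTX-control. Changes were small and mostly downward relative to the median gene: 42 of 82 tested members were lower and 4 higher in the libraries labelled UTX-KD, where 25.3% of all 16847 genes tested were called lower and 25.2% higher. The median log2 fold change was -0.087 over the members and 0.0087 over all genes, and the summed level was 9483 and 9228 CPM in UTX-KD and 10043 and 10134 CPM in UTX-control, a ratio of 0.927. Groups did not overlap for 59 of 82 members, 49 of them lower, while 36.1% of all tested genes lay wholly below their controls and 37.9% wholly above. The split rests on the scaling. With total counts as library size 19 members were lower and 19 higher, their median was 0.0056 and that of all genes 0.10, so the fall is one relative to other genes. As shares of all counted reads, the members took 0.975% and 0.957% in UTX-KD and 0.974% and 0.979% in UTX-control. In 1 fit over all 12 libraries, 15 were lower and 2 higher.

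ATP synthase was the complex with the largest share of falls, 13 of 18 tested members at a median of -0.13, including all 3 genes of the c ring and all 5 of the head. ATP5MC1 (ENSG00000159199), 1 of 3 genes that encode the same mature c subunit, had 69.4 and 68.6 CPM in the libraries labelled UTX-KD, against 90.5 and 93.6 CPM in UTX-control. ATP5MC1 was below its controls in both libraries, with a log2 fold change of -0.41 ± 0.033 (SE, adjusted p = 1.46e-08). ATP5MC3, another of them, had 157 and 159.9 CPM in the libraries labelled UTX-KD, against 196 and 200.4 CPM in UTX-control. For ATP5MC3 the groups did not overlap, and the log2 fold change was -0.32 ± 0.030 (SE, adjusted p = 9.81e-08). ATP5MF, subunit f, had 85.2 and 84.3 CPM in the libraries labelled UTX-KD, against 105 and 106 CPM in UTX-control. Both ATP5MF values lay below both controls, with a log2 fold change of -0.32 ± 0.031 (SE, adjusted p = 1.87e-07). The third c subunit gene, ATP5MC2, had a log2 fold change of -0.14 ± 0.031 (adjusted p = 0.00128). ATP5F1A had a log2 fold change of -0.25 ± 0.032 (adjusted p = 4.65e-06), ATP5F1B had a log2 fold change of -0.081 ± 0.032 (adjusted p = 0.0456), and ATP5IF1 had a log2 fold change of -0.12 ± 0.031 (adjusted p = 0.00443). The ATP5F1B and ATP5IF1 calls ended under several alternatives, total counts among them, where ATP5F1B stood at 0.011.

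Complex III had 7 lower members and 1 higher, and its redox and core subunits fell together, 4 of 4. UQCRFS1, the Rieske protein, had 80.3 and 77.5 CPM in the libraries labelled UTX-KD, against 94.2 and 95.3 CPM in UTX-control. UQCRFS1 was below its controls in both libraries, with a log2 fold change of -0.26 ± 0.032 (SE, adjusted p = 2.75e-06). UQCRC1 had a log2 fold change of -0.22 ± 0.033 (adjusted p = 1.85e-05) and CYC1 had a log2 fold change of -0.22 ± 0.034 (adjusted p = 2.91e-05). UQCRB, a small subunit, was the member that rose, a log2 fold change of 0.10 ± 0.030 (adjusted p = 0.00821).

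Complex I had 18 lower members and 1 higher at a median of -0.090. NDUFC1, an accessory subunit of the membrane arm, had 40.1 and 38.7 CPM in the libraries labelled UTX-KD, against 50.1 and 51.1 CPM in UTX-control. NDUFC1 was below its controls in both libraries, with a log2 fold change of -0.36 ± 0.038 (SE, adjusted p = 4.52e-07). NDUFB9, another membrane arm subunit, had 97.9 and 93.4 CPM in the libraries labelled UTX-KD, against 123 and 119 CPM in UTX-control. For NDUFB9 the groups did not overlap, and the log2 fold change was -0.34 ± 0.033 (SE, adjusted p = 1.77e-07). NDUFS6, an accessory subunit of the NADH-oxidising arm, had a log2 fold change of -0.30 ± 0.032 (adjusted p = 4.00e-07). NDUFA13 alone rose in the complex, a log2 fold change of 0.20 ± 0.040 (adjusted p = 0.000482). Of the conserved core, NDUFS1, NDUFS3 and NDUFV2 were lower, at -0.18, -0.15 and -0.14, and NDUFV1, NDUFS7 and NDUFS8 had values of -0.026, -0.0019 and -0.033 that did not pass. In complex II, SDHA and SDHB were lower. SDHA, the flavoprotein, had 134 and 127 CPM in the libraries labelled UTX-KD, against 159 and 167 CPM in UTX-control. Both SDHA values lay below both controls, with a log2 fold change of -0.32 ± 0.034 (SE, adjusted p = 4.92e-07). Named pseudogenes of SDHA held 20.2% of the reads on SDHA and its pseudogenes in this comparison, so part of the SDHA count may be misplaced. SDHB had a log2 fold change of -0.16 ± 0.032 (adjusted p = 0.000469), SDHC 0.0028 and SDHD 0.031, and neither anchor passed.

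In complex IV the median was 0.014, and of 13 tested members 2 were lower, 2 higher and 9 not called. NDUFA4L2 (ENSG00000185633), the low-oxygen inducible paralogue of NDUFA4, had 9.99 and 10.5 CPM in the libraries labelled UTX-KD, against 3.70 and 4.40 CPM in UTX-control. NDUFA4L2 was above its controls in both libraries, with a log2 fold change of 1.35 ± 0.083 (SE, adjusted p = 6.32e-10). No other tested member reached this log2 fold change in any of the 3 comparisons, though ATP5ME in TAL1-KD, at 1.33, was within its error. COX7A2L, also known as SCAF1, which helps to join complexes III and IV into supercomplexes, had 60.2 and 60.8 CPM in the libraries labelled UTX-KD, against 46.5 and 46.4 CPM in UTX-control. For COX7A2L the groups did not overlap, and the log2 fold change was 0.38 ± 0.035 (SE, adjusted p = 8.76e-08). COX5A had a log2 fold change of -0.13 ± 0.029 (adjusted p = 0.00108) and COX7B had a log2 fold change of -0.12 ± 0.033 (adjusted p = 0.00412). NDUFA4 itself had a log2 fold change of 0.0079 ± 0.032 (adjusted p = 0.864). With offsets for GC content and length, 12 members of all complexes were called higher and 37 lower. Without replicate 2 of UTX-KD or replicate 1 of UTX-control the calls of ATP5F1B and NDUFV2 ended, and without replicate 2 of UTX-control those of ATP5F1B, ATP5IF1, COX7B, UQCRB and UQCRH.

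The third comparison set J4-2uM against J4-control. GSK-J4 went with lower levels of most respiratory chain genes, but not of all: 56 of 83 tested members fell and 17 rose, where 36.9% of all 17907 genes tested were called lower and 37.9% higher. The median log2 fold change was -0.31 over the members and 0.0084 over all genes, and the summed level was 8199.9 and 7947 CPM in J4-2uM and 9744 and 9796 CPM in J4-control, a ratio of 0.826. Groups did not overlap for 78 of 83 members, 60 of them lower, while 43.1% of all tested genes lay wholly below their controls and 44.1% wholly above. With total counts as library size, 45 fell and 25 rose, at a median of -0.14 where that of all genes was 0.18. With offsets for GC content and length, 52 fell and 20 rose, and the median over the members was -0.20. In 1 fit over all 12 libraries 52 fell and 10 rose.

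ATP synthase had the lowest median of the 5 complexes, with 14 of 18 tested members lower and 1 higher at -0.45, and its summed level was 0.735 times that of the controls. ATP5MC1, the c subunit gene named above, had 43.9 and 42.9 CPM in J4-2uM, against 85.9 and 86.9 CPM in J4-control. ATP5MC1 was below its controls in both libraries, with a log2 fold change of -0.99 ± 0.035 (SE, adjusted p = 3.12e-11). ATP5F1D, the delta subunit, had 52.2 and 52.6 CPM in J4-2uM, against 97.1 and 95.9 CPM in J4-control. For ATP5F1D the groups did not overlap, and the log2 fold change was -0.88 ± 0.034 (SE, adjusted p = 7.02e-11). ATP5PD, subunit d of the peripheral stalk, had 49.2 and 46.0 CPM in J4-2uM, against 81.3 and 82.3 CPM in J4-control. Both ATP5PD values lay below both controls, with a log2 fold change of -0.78 ± 0.039 (SE, adjusted p = 8.69e-10). ATP5F1A had a log2 fold change of -0.73 ± 0.034 (adjusted p = 3.96e-10) and ATP5F1B had a log2 fold change of -0.34 ± 0.032 (adjusted p = 4.28e-07). The c subunit genes ATP5MC3 and ATP5MC2 had log2 fold changes of -0.58 and -0.31. ATP5IF1 went the other way, a log2 fold change of 0.14 ± 0.033 (adjusted p = 0.00147), a call that ended without replicate 1 of J4-control and in the fit over 12 libraries.

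Complex I held calls in both directions, 11 higher and 24 lower. Of the 7 conserved flavin and iron-sulphur subunits, 5 rose and 2 fell, at a median of 0.18, while of its NDUFA subunits 9 of 13 fell, of its NDUFB subunits 8 of 11, and of the remaining accessory subunits 5 of 6. NDUFS7, an iron-sulphur subunit near the coenzyme Q site, had 110.2 and 110.2 CPM in J4-2uM, against 87.7 and 87.3 CPM in J4-control. For NDUFS7 the groups did not overlap, and the log2 fold change was 0.33 ± 0.033 (SE, adjusted p = 6.95e-07). NDUFS8, the neighbouring iron-sulphur subunit, had a log2 fold change of 0.29 ± 0.034 (adjusted p = 4.69e-06), NDUFV1, which binds flavin and oxidises NADH, had a log2 fold change of 0.18 ± 0.032 (adjusted p = 0.000149), and NDUFS3 had a log2 fold change of 0.15 ± 0.035 (adjusted p = 0.00149). NDUFS1, which carries electrons on from the flavin, had 114 and 109 CPM in J4-2uM, against 166 and 168 CPM in J4-control. Both NDUFS1 values lay below both controls, with a log2 fold change of -0.58 ± 0.034 (SE, adjusted p = 3.94e-09). NDUFV2, the partner of NDUFV1, had a log2 fold change of -0.62 ± 0.055 (adjusted p = 2.52e-07). Its named pseudogene took 19.3% of the reads on NDUFV2 and the pseudogene together, and stood at 2.63 and 2.62 CPM in J4-2uM and 5.11 and 5.76 CPM in J4-control. The NDUFV1 call ended under the offsets for GC content and length.

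The lowest log2 fold changes of complex I were those of accessory subunits. NDUFAB1 (ENSG00000004779), the mitochondrial acyl carrier protein, had 48.7 and 45.0 CPM in J4-2uM, against 89.1 and 88.1 CPM in J4-control. NDUFAB1 was below its controls in both libraries, with a log2 fold change of -0.92 ± 0.041 (SE, adjusted p = 2.63e-10). NDUFC1, of the membrane arm, had 28.5 and 26.5 CPM in J4-2uM, against 49.7 and 51.4 CPM in J4-control. For NDUFC1 the groups did not overlap, and the log2 fold change was -0.88 ± 0.044 (SE, adjusted p = 8.75e-10). NDUFB3 had a log2 fold change of -0.67 ± 0.040 (adjusted p = 5.06e-09). NDUFS4, an accessory subunit mutated in Leigh syndrome, had 58.3 and 57.4 CPM in J4-2uM, against 43.1 and 42.9 CPM in J4-control. Both NDUFS4 values lay above both controls, with a log2 fold change of 0.43 ± 0.036 (SE, adjusted p = 1.56e-07). NDUFB1 rose as well, a log2 fold change of 0.37 ± 0.039 (adjusted p = 1.23e-06).

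Complex II was split, with 2 members higher and 2 lower, and its summed level was 426 and 421 CPM in J4-2uM and 425 and 417 CPM in J4-control, a ratio of 1.01. SDHA, the flavoprotein, had 196 and 192 CPM in J4-2uM, against 162 and 158 CPM in J4-control. SDHA was above its controls in both libraries, with a log2 fold change of 0.28 ± 0.033 (SE, adjusted p = 4.59e-06). SDHD, a membrane anchor, had 53.8 and 56.6 CPM in J4-2uM, against 48.5 and 44.0 CPM in J4-control. For SDHD the groups did not overlap, and the log2 fold change was 0.26 ± 0.047 (SE, adjusted p = 0.000234). SDHC, the other anchor, had 82.2 and 81.5 CPM in J4-2uM, against 108 and 109 CPM in J4-control. Both SDHC values lay below both controls, with a log2 fold change of -0.41 ± 0.033 (SE, adjusted p = 9.79e-08). SDHB had a log2 fold change of -0.20 ± 0.034 (adjusted p = 0.000178). SDHAP3, a pseudogene of SDHA, had 10.4 and 10.3 CPM in J4-2uM and 8.34 and 7.73 CPM in J4-control. Its log2 fold changes in TAL1-KD and UTX-KD, -0.12 and -0.096, did not pass. All listed pseudogenes of SDHA together held 25.1% of the reads on SDHA and its copies. The levels of the copies other than SDHAP3 are not given here.

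In complex III 8 of 10 members fell and 1 rose at a median of -0.25. UQCR10, a small subunit, had 52.5 and 48.6 CPM in J4-2uM, against 76.1 and 78.2 CPM in J4-control. UQCR10 was below its controls in both libraries, with a log2 fold change of -0.61 ± 0.041 (SE, adjusted p = 1.72e-08). UQCRH, the hinge subunit, and UQCRHL, its near-identical copy between which reads may be split, had -0.44 and -0.48. CYC1 and UQCRFS1 had -0.20 and -0.30, and UQCRB rose at 0.12. In complex IV 8 of 14 members fell and 2 rose, at a median of -0.25. COX5A, an accessory subunit on the matrix side, had 117 and 109 CPM in J4-2uM, against 189 and 189 CPM in J4-control. For COX5A the groups did not overlap, and the log2 fold change was -0.74 ± 0.037 (SE, adjusted p = 8.27e-10). COX6B1 and COX5B had -0.54 and -0.46. COX4I1, COX6A1 and COX8A had values of -0.071, -0.039 and -0.011 that did not pass, and each was positive under 1 or more alternatives. NDUFA4L2, the paralogue of NDUFA4, had 7.60 and 8.01 CPM in J4-2uM, against 5.05 and 5.18 CPM in J4-control. Both NDUFA4L2 values lay above both controls, with a log2 fold change of 0.61 ± 0.078 (SE, adjusted p = 1.05e-05). NDUFA4 moved the other way, a log2 fold change of -0.36 ± 0.037 (adjusted p = 9.55e-07). The UQCRB call ended without replicate 1 of J4-control and that of COX7A2L, 0.15, without replicate 2.

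**Figure D3:**
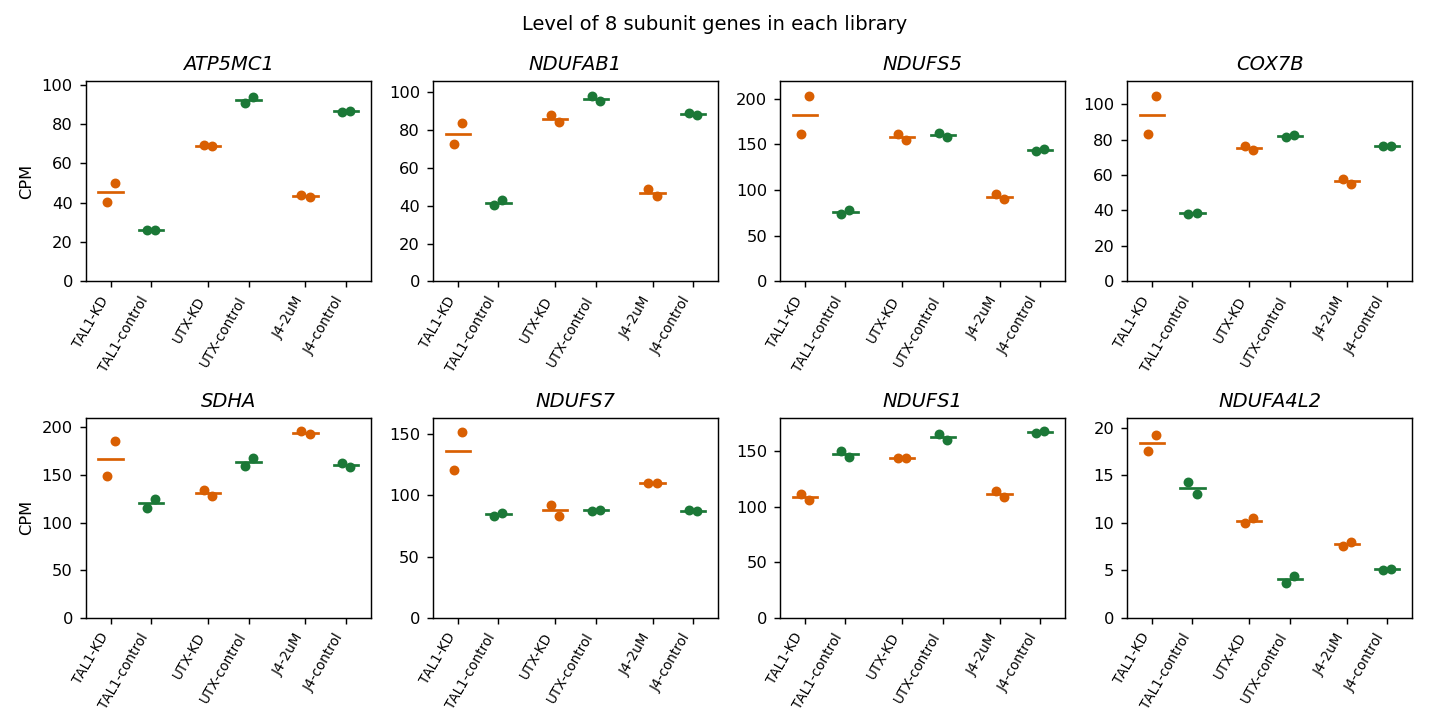
CPM (y axes from 0) of 8 subunit genes in each library, with TAL1-KD, UTX-KD and J4-2uM (orange) left of their controls (green), points for libraries and lines for means of 2. ATP5MC1, NDUFAB1, NDUFS5 and COX7B lay above their control in TAL1-KD and below it in J4-2uM, NDUFS1 lay below its control in all 3, and NDUFA4L2 above it in all 3.

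The 3 comparisons share no control library, so the differences between responses could be tested, as an interaction over 8 libraries in edgeR. The response in the libraries labelled TAL1-KD exceeded that in UTX-KD for 71 of 82 members and fell short of it for 2 (NDUFA4L2 and NDUFS1), where 25.0% of 17611 genes were called positive and 25.1% negative. The count of 2 was 1 without either TAL1-control library or any UTX library in turn, and 3 without either TAL1-KD library. The GSK-J4 response was below that of TAL1-KD for 68 of 83 members, with 0 above it (1 without either TAL1-KD library), where 26.3% of 18206 genes were negative and 27.6% positive. At an unadjusted p under 0.05 the count above was also 0, and DESeq2 gave 0, while total counts as library size gave 5. The GSK-J4 response was below that of UTX-KD for 49 of 83 members and above it for 16, where 30.1% of 18197 genes were negative and 28.3% positive.

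Of the 82 members tested in all 3 comparisons, 40 (48.8%) rose in TAL1-KD and fell with GSK-J4, against 8.16% of all 16103 genes tested in them, and 28 (34.1%) rose in TAL1-KD and fell in UTX-KD, against 6.19%. The order higher, lower and lower in TAL1-KD, UTX-KD and GSK-J4 was shown by 22 of the 82 (26.8%), against 4.18% of the 16103 genes, with the UTX-KD falls relative to TMM scaling as described. These 22 come from complexes I, III, IV and V, and include NDUFAB1, NDUFS6, CYC1, UQCRFS1, COX7B, ATP5F1B and ATP5MC1. Another 18 (22.0%) rose in TAL1-KD, were not called in UTX-KD and fell with GSK-J4, against 2.83% of all genes. Among members with opposite calls in TAL1-KD and GSK-J4, the largest gaps relative to their error were those of NDUFAB1, ATP5MC1, NDUFS5, COX7B and ATP5MK, whose J4-2uM response minus TAL1-KD response was -1.86, -1.82, -1.93, -1.75 and -1.25 on the log2 scale, each with an edgeR adjusted p of 4.92e-06 or lower. Across the 82 members the log2 fold changes of TAL1-KD and GSK-J4 had a Pearson correlation of 0.062 and those of GSK-J4 and UTX-KD 0.50, given as a description, since members of a comparison share its libraries.

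Members whose calls had 1 sign in all 3 comparisons were few. NDUFA13, UQCRB, COX7A2L and NDUFA4L2 were higher in each, 4 of 82 (4.88%, against 8.02% of all genes). NDUFA4L2 had 17.6 and 19.3 CPM in TAL1-KD and 14.3 and 13.0 CPM in TAL1-control, the highest level of the gene in any group, but that call ended under 5 alternatives. NDUFS1 and ATP5F1D were lower in each, 2 of 82 (2.44%, against 6.98% of all genes). SDHA, NDUFS3, NDUFA6 and ATP5IF1 were higher in TAL1-KD, lower in UTX-KD and higher with GSK-J4, 4 of 82 (4.88%, against 1.08% of all genes). Their J4-2uM response minus UTX-KD response was 0.60, 0.31, 0.28 and 0.27, and the largest of their adjusted p-values was 9.17e-05.

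**Figure D4:**
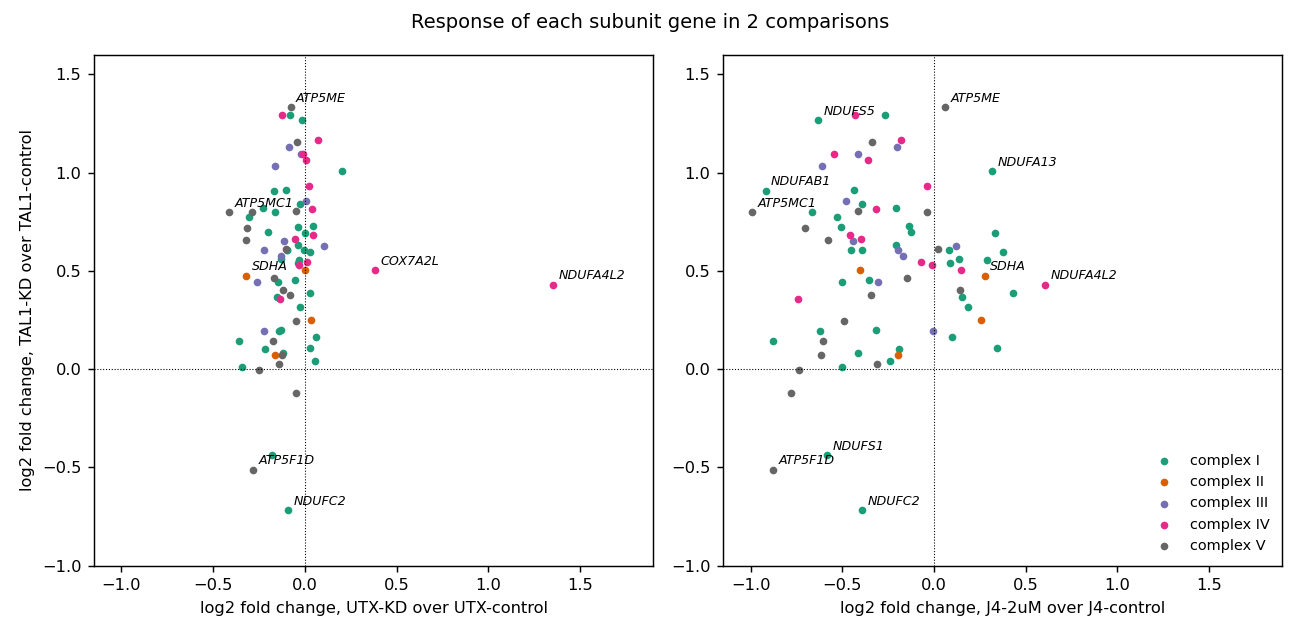
Log2 fold change of each of 82 subunit genes in TAL1-KD over TAL1-control (y axes) against that in UTX-KD over UTX-control (left x axis) and in J4-2uM over J4-control (right x axis), coloured by complex. Most points of the right panel lie to its upper left, where 40 genes were called higher in TAL1-KD and lower in J4-2uM, and NDUFA4L2 lies at 1.35 in UTX-KD.

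The promoters of members that moved apart and of SDHA are shown because NRF1 and GABP are the known regulators of this gene family. NDUFS5, also among the members with the largest gaps, had no matched promoter and is not shown. Capitals mark matches to GCGCANGCG, a core of the NRF1 motif, or to CCGGAAG, a form of the core bound by ETS factors like GABP. Both strands were searched. Each promoter is the 250 bases before the start of the gene on its own strand, from RefSeq on GRCh38.p14, printed 5′ to 3′. They are ATP5MC1 at chr17:48892537-48892786 (plus strand), COX7B at chrX:77899218-77899467 (plus), NDUFAB1 at chr16:23596317-23596566 (minus), ATP5MK at chr10:103396476-103396725 (minus) and SDHA at chr5:218070-218319 (plus).
ATP5MC1: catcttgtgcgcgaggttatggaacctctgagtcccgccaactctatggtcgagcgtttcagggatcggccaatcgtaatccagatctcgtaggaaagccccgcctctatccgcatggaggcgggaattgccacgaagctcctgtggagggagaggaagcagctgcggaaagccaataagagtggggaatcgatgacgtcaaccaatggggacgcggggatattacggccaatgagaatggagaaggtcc
COX7B: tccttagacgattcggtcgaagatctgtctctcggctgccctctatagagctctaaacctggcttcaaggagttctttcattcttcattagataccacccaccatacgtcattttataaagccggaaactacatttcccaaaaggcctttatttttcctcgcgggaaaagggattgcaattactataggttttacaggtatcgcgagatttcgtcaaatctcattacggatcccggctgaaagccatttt
NDUFAB1: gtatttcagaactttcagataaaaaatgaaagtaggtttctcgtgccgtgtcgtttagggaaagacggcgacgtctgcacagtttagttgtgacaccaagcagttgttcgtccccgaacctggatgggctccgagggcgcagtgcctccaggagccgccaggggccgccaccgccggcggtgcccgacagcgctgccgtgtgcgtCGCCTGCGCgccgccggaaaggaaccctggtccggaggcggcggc
ATP5MK: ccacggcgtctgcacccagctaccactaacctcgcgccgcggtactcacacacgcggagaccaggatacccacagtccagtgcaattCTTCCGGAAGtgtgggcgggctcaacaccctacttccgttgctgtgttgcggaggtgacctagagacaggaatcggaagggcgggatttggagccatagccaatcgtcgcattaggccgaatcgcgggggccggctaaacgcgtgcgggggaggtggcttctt
SDHA: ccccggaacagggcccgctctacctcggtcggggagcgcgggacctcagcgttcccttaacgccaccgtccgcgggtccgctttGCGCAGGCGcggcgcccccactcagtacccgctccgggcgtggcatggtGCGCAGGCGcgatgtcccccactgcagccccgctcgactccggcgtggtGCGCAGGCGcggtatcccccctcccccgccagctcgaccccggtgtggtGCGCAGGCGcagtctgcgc

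SDHA held 4 matches to the NRF1 letters, NDUFAB1 held 1, and ATP5MK held ETS letters on both strands that overlap in 1 run. Neither ATP5MC1 nor COX7B held a match to these letters in this window. COX7B and NDUFAB1 held CCGGAAA, which differs from the ETS letters in its last base and was not counted. RefSeq promoters were matched for 70 members, 67 of them tested in the GSK-J4 comparison. COX6B2, one of these, was tested in no other comparison. The NRF1 letters were found in 20 of these 67 (29.9%), against 7.02% of 27305 promoters of the same length. The ETS letters were found in 17 (25.4%), against 8.82%. The 27305 promoters were not limited to coding or tested genes, as the members were, so these shares compare unlike sets. Of the 18 matched members called higher, lower and lower, 5 held the NRF1 letters (27.8%) and 4 the ETS letters (22.2%). Of the other 49 members, COX6B2 among them, 15 (30.6%) held the NRF1 letters and 13 (26.5%) the ETS letters. A match describes letters only.

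Genes that serve the chain were read from lists of assembly factors, carriers, fuel enzymes and regulators. Of 53 assembly factors, 19 rose and 9 fell in TAL1-KD (median log2 fold change 0.15), 3 rose and 32 fell in UTX-KD (-0.15), and 14 rose and 26 fell with GSK-J4 (-0.12). For this and the lists that follow, the shares of all genes called higher and lower were 26.3% and 27.9% in TAL1-KD, 25.2% and 25.3% in UTX-KD, and 37.9% and 36.9% with GSK-J4. LRPPRC, which stabilises mitochondrial mRNAs, had 87.4 and 82.9 CPM in J4-2uM, against 196 and 199 CPM in J4-control, a log2 fold change of -1.22 ± 0.036 (SE, adjusted p = 6.50e-12). It was lower in UTX-KD and TAL1-KD too, at -0.56 and -0.50. In TAL1-KD 11 of 23 factors for complex IV rose and 3 fell, and 3 of 4 for complex II rose. Of 16 factors for complex I, 3 rose and 3 fell, at a median of -0.064. For complex III 1 of 6 rose and 2 fell, and for complex V 1 of 5 rose and 1 fell. PET100 and COA6, factors for complex IV, rose in TAL1-KD at 1.24 and 1.17. NDUFAF8, a complex I factor, had 1.15 in TAL1-KD, -0.47 in UTX-KD and -0.79 with GSK-J4, all called.

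Of 17 genes of the citric acid cycle and pyruvate dehydrogenase, 4 rose and 4 fell in TAL1-KD, 14 fell in UTX-KD, and 2 rose and 12 fell with GSK-J4 at a median of -0.45. DLAT, the acetyltransferase subunit of pyruvate dehydrogenase, had 41.4 and 41.5 CPM in J4-2uM, against 114 and 117 CPM in J4-control, a log2 fold change of -1.48 ± 0.035 (SE, adjusted p = 9.62e-13). Of 17 electron carriers and coenzyme Q genes, 2 rose and 8 fell in TAL1-KD, 7 fell in UTX-KD, and 2 rose and 11 fell with GSK-J4. CYCS, cytochrome c, had 0.52 in TAL1-KD and -0.54 in UTX-KD, both called. The list median in TAL1-KD was -0.15, and COQ7 and COQ5 were among the 8 called lower. PDSS1, which makes the tail of coenzyme Q, had 10.6 and 10.1 CPM in J4-2uM, against 29.1 and 29.2 CPM in J4-control, a log2 fold change of -1.49 ± 0.052 (SE, adjusted p = 2.90e-11).

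Of 15 regulators of the chain tested, 5 rose and 4 fell in TAL1-KD, 1 rose and 9 fell in UTX-KD, and of 16 tested 2 rose and 13 fell with GSK-J4, the TAL1-KD counts being near the shares of all genes. GABPA, the DNA-binding subunit of GABP, was lower in TAL1-KD at -0.65, and POLRMT, the mitochondrial RNA polymerase, was higher at 0.79. NRF1 and HCFC1 were lower in UTX-KD at -0.38 and -0.38, and TFB2M, a mitochondrial transcription factor, and HCFC1 with GSK-J4 at -1.21 and -0.64. Of 12 genes linked to low oxygen, 5 rose and 1 fell in TAL1-KD, 4 rose and 8 fell in UTX-KD, and 3 rose and 9 fell with GSK-J4. BNIP3, a mitophagy receptor induced at low oxygen, fell with GSK-J4 and in UTX-KD by more than any subunit gene, at -2.26 and -1.84. PDK1, which restrains pyruvate dehydrogenase, was the 1 gene of this list called lower in TAL1-KD, at -1.43. The list median there was 0.29, and MXI1 and HIF1A were among the 5 called higher. EPAS1 was called higher in UTX-KD and with GSK-J4, where the list medians were -0.18 and -0.45.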

How the data were processed

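RNA-seq of 12 libraries was analysed. Per the submitters' processing notes, the authors used TopHat2 2.0.12, HTSeq 0.6.1p1 and DESeq2 with hg19, and the deposited tables hold raw read counts per Ensembl gene. The log2 fold changes and adjusted p-values deposited beside them come from the authors' DESeq2 runs, per the file headers, and were used only as a cross-check. The strand setting and the annotation are not given in the sources used here, so reads of overlapping or antisense genes may be mixed. Symbols came from GENCODE release 29 and lengths and GC content from the reference transcripts.

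The 3 comparisons were fitted separately, 4 libraries each, with edgeR 4.0.16 (R 4.3.3, limma 3.58.1; filterByExpr, TMM, quasi-likelihood test, two-sided, Benjamini-Hochberg over all genes tested, threshold 0.05). All adjusted p-values in the text are from these edgeR fits, and CPM values are relative to the TMM-scaled library size. Differences between responses were tested as interactions over 8 libraries. Scripts were tested on simulated counts. Depth was 55524079 to 82534711 counted reads per library, and the floor for a count of 0 covers counting error only. Alternatives were DESeq2 1.42.0 (size factors, Wald test), no or a stricter filter (1 CPM), adjusted p under 0.01, a replicate block, offsets for GC content and length (splines with 5 degrees of freedom), 1 fit over 12 libraries, each library left out in turn and, chosen after seeing the data, total counts as library size.

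Genes named with values were those of complex II, the redox and catalytic subunits, the isoform sets, ATP5IF1 and, per comparison and complex, up to 3 called members per direction with the largest log2 fold change. Between comparisons they were up to 5 members per pair with opposite calls and the largest ratio of difference to SE, and from the other lists the called genes with the smallest adjusted p. A few others are marked as picked for their values. 1 named member is not reported here. The members and lists were chosen with earlier results of these data known. Promoters are from RefSeq on GRCh38.p14, and no coordinates of the hg19 build are given. The authors' deposited tables called 62 members higher and 3 lower in TAL1-KD, 4 higher and 37 lower in UTX-KD, and 15 higher and 56 lower in J4-2uM, with no member called in opposite directions.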

Additional observations from a re-analysis of the deposited data

Results flagged for a closer look

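Differences between the responses stand out because the interaction test passed for most subunit genes. The TAL1-KD response minus the UTX-KD response was positive for 71 of 82 members and negative for 2. Of all genes tested, 25.0% were positive and 25.1% negative for this difference. Among those called higher in TAL1-KD and lower in UTX-KD, it was 1.45 for COX7B, 1.11 for NDUFAB1, 1.25 for ATP5MC1, 1.11 for NDUFS6 and 1.08 for NDUFB4 on the log2 scale.

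The J4-2uM response minus the TAL1-KD response was positive for 0 of 83 members and negative for 68. Of all genes tested, 27.6% were positive and 26.3% negative for this difference. Among those with opposite calls, it was -1.86 for NDUFAB1, -1.82 for ATP5MC1, -1.93 for NDUFS5, -1.75 for COX7B and -1.25 for ATP5MK.

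The J4-2uM response minus the UTX-KD response was positive for 16 of 83 members (19.3%) and negative for 49 (59.0%). Of all genes tested, 28.3% were positive and 30.1% negative for this difference. The 4 members higher with GSK-J4 and lower in UTX-KD had differences of 0.60 for SDHA, 0.31 for NDUFS3, 0.27 for ATP5IF1 and 0.28 for NDUFA6. Both TAL1-control libraries lay below the other 4 control libraries for 75 of 82 members, against 43.6% of all genes. This concerns only the differences that use TAL1 libraries. Doxycycline was part of both knockdown experiments and not of the GSK-J4 one, which concerns the differences that use J4-2uM. In TAL1-KD minus UTX-KD both responses include doxycycline. An unlike effect of it in these lines cannot be told apart from the shRNAs. The part of the control levels or of doxycycline was not tested.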

How the results depend on the processing

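Counts of subunit genes kept their direction and stayed within 1.5 times of the values given, except as follows. For UTX-KD the higher count of 4 was 19 with total counts, 12 with offsets for GC content and length, 13 with these and the replicate block, and 2 in the fit over 12 libraries, and the lower count of 42 was 19 with total counts and 15 in the fit over 12 libraries. For J4-2uM the higher count of 17 was 10 in the fit over 12 libraries. The negative count of TAL1-KD minus UTX-KD was 1 at an adjusted p under 0.01, 6 with total counts and 1 to 3 with a library left out, and the positive count of J4-2uM minus TAL1-KD was 5 with total counts and 0 to 1 with a library left out. The causes were not tested. Total counts moved the median of all genes to -0.17 in TAL1-KD, 0.10 in UTX-KD and 0.18 in J4-2uM.

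With a library left out, higher and lower counts ran from 49 to 73 and 2 to 4 in TAL1-KD, 3 to 5 and 31 to 43 in UTX-KD, and 12 to 18 and 55 to 59 in J4-2uM, where a group of 1 library is assumed to vary like the other. Of 1768 recomputed values of named genes, 85 lost and 27 gained a call and 11 changed sign. ATP5MC2 in TAL1-KD ran from -0.18 without replicate 2 of TAL1-KD to 0.23 without replicate 1. With total counts, ATP5F1B and COX6B1 in UTX-KD were 0.011 and 0.082, and COX4I1, COX6A1 and COX8A in J4-2uM were 0.099, 0.13 and 0.16. With GC and length offsets, COX6A1 and COX7A2 in J4-2uM were 0.11 and 0.020, and with the replicate block as well COX6A1, COX7A2 and COX8A were 0.11, 0.019 and 0.082.

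With the replicate block the counts were 63 higher and 3 lower in TAL1-KD, 4 and 40 in UTX-KD, and 16 and 56 in J4-2uM, and 70 positive and 3 negative for TAL1-KD minus UTX-KD, 16 and 49 for J4-2uM minus UTX-KD, and 0 and 69 for J4-2uM minus TAL1-KD. Over all genes tested, same-numbered replicates deviated together with correlations of 0.067, 0.038 and -0.029, so the numbers were not taken as pairs. Among the members alone, replicate 2 was above replicate 1 for 73 of 82 in TAL1-KD and 70 of 82 in TAL1-control. With 2 libraries a group, the spread of each group rests on 1 difference.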
